A study of Drosophila melanogaster with 6 samples.

Results

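The genes that encode the proteasome of Drosophila melanogaster were examined as a group in RNA from unfertilized eggs. Members were taken by name, as the rows of the deposited gene tables whose symbol begins with Prosalpha, Prosbeta, Rpn or Rpt followed by a number, and 48 of the 13943 listed genes met this rule. They comprised 14 genes of the 20S core, 18 genes of the 19S regulatory particle, and 16 paralogs whose symbol carries an added letter such as R or T. Of the paralogs, 11 resembled 20S genes by name and 5 resembled 19S genes.

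RNA-seq had been made from 3 biological replicates of eggs from mothers that expressed MEK F53S and 3 from mothers that expressed wild-type MEK. MEK is the kinase that activates ERK, and the series text describes the mutant as a RASopathy variant, that is, one of the kind found in developmental disorders of the RAS pathway. Both transgenes had been put at one and the same genomic site and were driven by MTD-GAL4, a driver active in the female germline, so the wild-type MEK eggs also carried an overexpressed kinase. All mothers had been mated to sterile males, and each library came from about 20 embryos collected over 0 to 30 min. Each group was 1 fly line, so an effect of the mutation and a difference between the lines cannot be told apart. The eggs of a library were measured in bulk, so differences between single eggs cannot be seen.

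The proteasome is the protease that degrades ubiquitin-tagged proteins. Its 20S core is a barrel of stacked rings in which the alpha subunits form the gated ends and some of the beta subunits carry the cutting sites, and the 19S particle binds the barrel's ends, recognises and removes ubiquitin, and unfolds the substrate with a ring of ATPases. The early egg transcribes little, so its RNA is mostly what the mother's germline supplied during oogenesis, and several of the letter-suffixed paralogs of Drosophila are known for expression in the testis.

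The MEK F53S libraries held 37224814, 46223519 and 48485330 estimated reads in replicates 1, 2 and 3, and the wild-type MEK libraries held 48756311, 37342085 and 38269041. Transcripts of mitochondrially encoded genes took 4.14 to 5.24% of reads in MEK F53S eggs and 7.84 to 10.1% in wild-type MEK eggs. Effective length also differed between the groups: for 103 genes with 1 annotated transcript of about 1 kb, its median was 836 to 848 bases in MEK F53S libraries and 682 to 751 bases in wild-type MEK libraries. Dsor1, the fly MEK gene, averaged 1336 ± 229 CPM (counts normalised for library size) in MEK F53S eggs and 1370 ± 182 CPM in wild-type MEK eggs (SD, n = 3 each), with no difference called. Of 12 matched egg and germline markers none was at 0, and their summed level was 18125 to 18403 CPM in MEK F53S eggs and 20400 to 21116 CPM in wild-type MEK eggs. Most of that sum came from CycB and smg, and single markers differed in both directions. bcd was at 244.5 to 294.4 CPM in MEK F53S eggs and 798.2 to 869.6 CPM in wild-type MEK eggs. In the other direction, grk was at 101.8 to 142.3 against 63.03 to 69.62 CPM, and png at 28.46 to 31.78 against 9.721 to 14.6 CPM. Of 15 matched follicle and eggshell markers 10 were at 0 in every library, and the sum did not exceed 0.454 CPM in any. Of 10 matched fat body markers 5 were at 0 everywhere, and the sum was 67.1 to 111 CPM in MEK F53S eggs and 8.09 to 10.3 CPM in wild-type MEK eggs, nearly all of it from apolpp. The part of these differences in the results that follow was not tested, apart from the refits named below.

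Most subunits of the 19S particle were higher in MEK F53S eggs, and few subunits of the 20S core were. Of the 18 19S genes 17 rose and none fell, with a median log2 fold change of 0.65 and a range of 0.23 to 1.28. Of the 14 20S genes 3 rose and none fell, with a median log2 fold change of 0.25 and a range of −0.49 to 0.54. A gene was called where edgeR's quasi-likelihood test over 7539 genes gave a Benjamini-Hochberg adjusted p under 0.05. Over all those genes, 12.3% were called higher, 12.9% lower and 25.2% in either direction, and the median log2 fold change was 0.05. At an unadjusted p under 0.05, no 19S gene and 1 20S gene were lower, and DESeq2 likewise called 0 and 1 of them lower. Whether the 19S genes as a group differed from the 20S genes was not tested.

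The normalised CPM of all 3 MEK F53S libraries lay above all 3 wild-type MEK libraries for 17 of 18 19S genes and 5 of 14 20S genes, where 21.2% of all tested genes did so, and another 21.2% lay wholly below. In TPM, a level scaled for transcript length as well, the counts were 17 of 18 and 6 of 14, where 26% of all genes lay above and 15.5% below. No canonical gene lay wholly below on either scale.

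**Figure D1:**
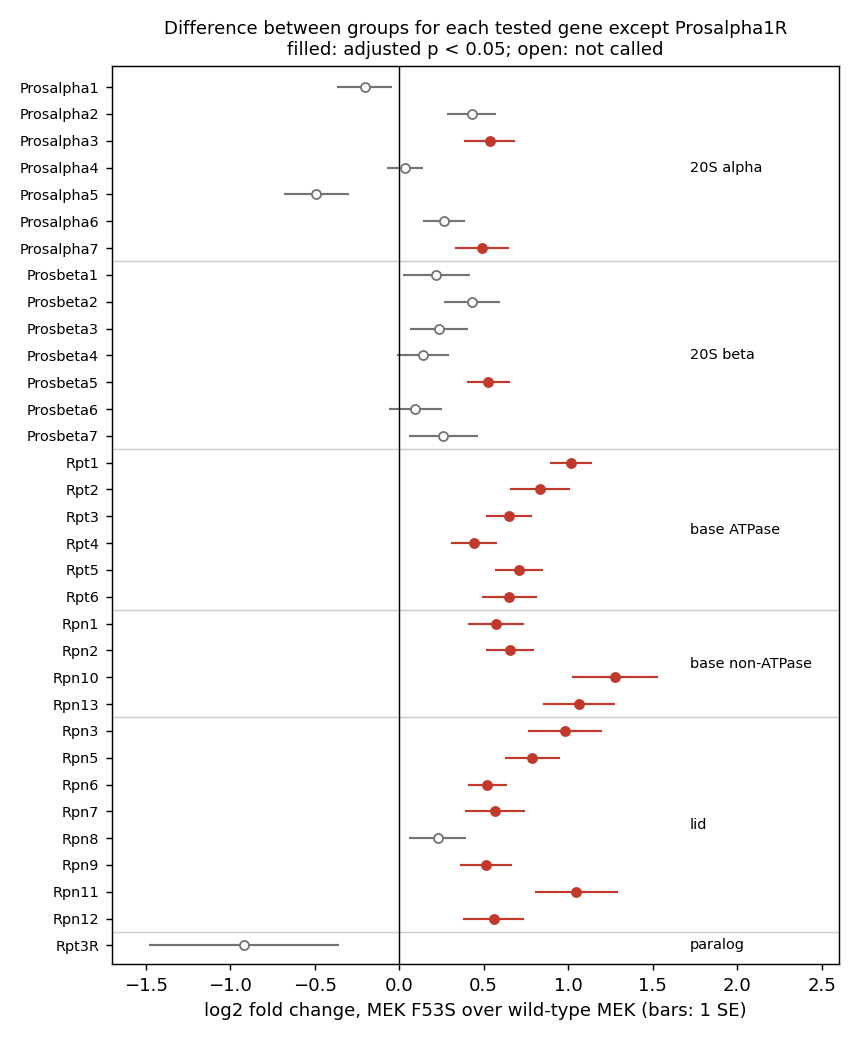
Log2 fold change of MEK F53S over wild-type MEK eggs (horizontal axis, bars 1 SE, n = 3 libraries each) for the 32 canonical subunits and Rpt3R, grouped by their place in the complex. Filled points mark an adjusted p under 0.05: 17 of 18 genes of the base and lid are filled, against 3 of 14 genes of the 20S core.

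The base of the 19S particle holds the 6 ATPases Rpt1 to Rpt6, which unfold substrates and open the core, and all 6 rose, with a median log2 fold change of 0.68. Rpt1 had 279, 343 and 295 TPM in MEK F53S replicates 1, 2 and 3, against 159, 148 and 145 TPM in wild-type MEK replicates. The groups were far apart, and the lowest MEK F53S library exceeded the highest wild-type MEK library. On the count scale Rpt1 averaged 108 ± 4.24 CPM in MEK F53S eggs and 53.1 ± 3.30 CPM in wild-type MEK eggs (SD, n = 3 each), a log2 fold change of 1.02 ± 0.12 (SE) with an edgeR adjusted p of 0.000628.

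Rpt5 had 109, 129 and 117 TPM in MEK F53S eggs, against 80.7, 61.7 and 57.8 TPM in wild-type MEK eggs, and its log2 fold change was 0.71 ± 0.14 (SE, edgeR adjusted p = 0.00664). The groups did not overlap, and wild-type MEK replicate 1 was the highest of its group. Rpt3 had 348, 396 and 352 TPM in MEK F53S eggs, against 280, 210 and 208 TPM in wild-type MEK eggs, with a log2 fold change of 0.65 ± 0.14 (SE, edgeR adjusted p = 0.00800). Its wild-type MEK replicate 1 again lay between the other wild-type libraries and the MEK F53S libraries. Rpt2 rose by a log2 fold change of 0.83, Rpt6 by 0.65 and Rpt4 by 0.45, with edgeR adjusted p-values of 0.00881, 0.0165 and 0.0393. Rpt6 shares 13.0% of its exon bases with a gene on the opposite strand, the largest such share among the 13 canonical genes that share any, and no source used here gives the strand setting of the counting.

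The non-ATPase genes of the base were Rpn1, Rpn2, Rpn10 and Rpn13, and all 4 rose, with a median log2 fold change of 0.86. Rpn1, Rpn10 and Rpn13 are ubiquitin receptors, and Rpn2 is the scaffold on which Rpn13 sits. Rpn10 had 156, 160 and 161 TPM in MEK F53S eggs, against 97.7, 56.5 and 43.6 TPM in wild-type MEK eggs. The MEK F53S libraries were close to one another, while the wild-type MEK libraries were spread, with replicate 1 the highest. Its count level averaged 84.3 ± 5.35 CPM in MEK F53S eggs and 34.7 ± 14.7 CPM in wild-type MEK eggs (SD, n = 3 each), and its log2 fold change of 1.28 ± 0.25 (SE, edgeR adjusted p = 0.00641) was the highest of the 32 canonical subunits.

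Rpn13 showed the same arrangement of libraries, with 521, 524 and 526 TPM in MEK F53S eggs, against 386, 234 and 214 TPM in wild-type MEK eggs. Its log2 fold change was 1.06 ± 0.21 (SE, edgeR adjusted p = 0.00647). Rpn13 was the most abundant 19S transcript in MEK F53S eggs by TPM, at 524 ± 2.63, and averaged 278 ± 94.2 TPM in wild-type MEK eggs (SD, n = 3 each), a mean within 1 SD of that of Rpn1 at 279 ± 52.9 TPM. This rank held on the length-scaled level only, since Rpn13 averaged 111 CPM in MEK F53S eggs, against 344 CPM for Rpn1. Its deposited effective length was 80.3 to 228 bases, while its longest annotated transcript has 1495 bases. With effective length as an offset, Rpn13 had a log2 fold change of 0.61 and was not called (edgeR adjusted p = 0.0828). The large subunits Rpn1 and Rpn2 rose by log2 fold changes of 0.58 and 0.66 (edgeR adjusted p = 0.0314 and 0.00943). In TPM, Rpn1 in MEK F53S replicate 1, at 344, was only just above wild-type MEK replicate 1, at 340.

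The lid holds Rpn11, the metalloprotease that removes ubiquitin chains, its catalytically inactive partner Rpn8, and the structural subunits Rpn3, Rpn5, Rpn6, Rpn7, Rpn9 and Rpn12. Of these 8 genes 7 rose, with a median log2 fold change of 0.56 over all 8. Rpn11 averaged 177 ± 28.3 TPM in MEK F53S eggs and 84.3 ± 27.6 TPM in wild-type MEK eggs (SD, n = 3 each), with a log2 fold change of 1.05 (edgeR adjusted p = 0.0137). Rpn3 averaged 194 ± 6.05 TPM in MEK F53S eggs and 100 ± 33.3 TPM in wild-type MEK eggs (SD, n = 3 each), with a log2 fold change of 0.98 (edgeR adjusted p = 0.0110). Rpn11 and Rpn3 led the lid, and their groups did not overlap.

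Among the other lid genes, Rpn5 rose by a log2 fold change of 0.79 (edgeR adjusted p = 0.00795) and Rpn6, which braces the lid against the core, by 0.52 (edgeR adjusted p = 0.0104). Rpn7, Rpn12 and Rpn9 rose by 0.56, 0.56 and 0.51, with edgeR adjusted p-values of 0.0431, 0.0460 and 0.0356. Rpn8 was the 1 gene of the 19S particle that was not called. It had 265, 379 and 285 TPM in MEK F53S eggs, against 341, 238 and 223 TPM in wild-type MEK eggs, and its log2 fold change was 0.23 ± 0.17 (SE, edgeR adjusted p = 0.354). Wild-type MEK replicate 1 was higher than the MEK F53S replicates 1 and 3, so the groups overlapped.

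**Figure D2:**
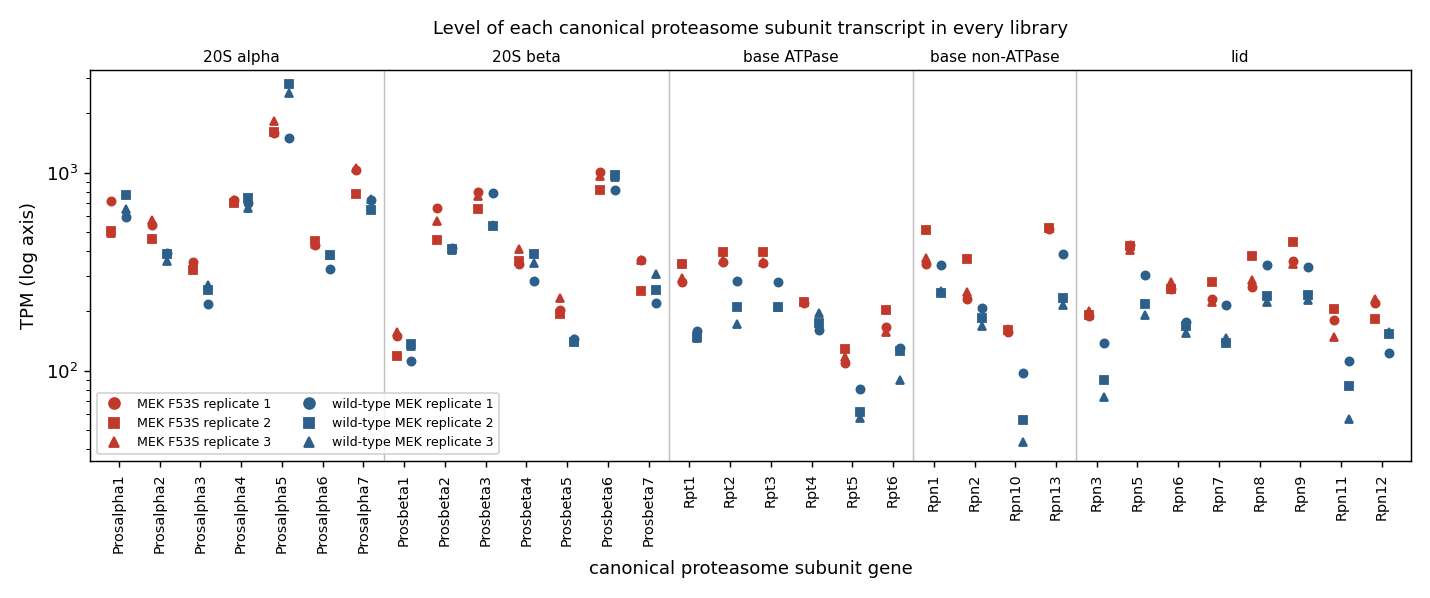
TPM on a log axis for each of the 32 canonical subunit genes in every library, with MEK F53S to the left of wild-type MEK for each gene and a symbol shape for each replicate number. In the base and lid panels the MEK F53S points lie above the wild-type MEK points for every gene but Rpn8, and the wild-type MEK circle (replicate 1) is mostly the highest of its group.

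Wild-type MEK replicate 1 stood apart from its group in the 19S genes, and it did so over all genes as well. Between pairs of libraries, the spread of counts was taken as chi-square per degree of freedom over 6965 to 6985 genes. It was 173 against replicate 2 and 164.5 against replicate 3, while those libraries gave 49.05 against each other. By TPM wild-type MEK replicate 1 lay above the other wild-type MEK libraries and below all MEK F53S libraries for 15 of the 18 19S genes and for 3 of the 14 20S genes. The share over all genes was not counted. This library was the highest of its group in 16 of 18 19S genes, 4 of 14 20S genes and 48.2% of all tested genes. In the fit without that library, 15 19S genes were called, with a median log2 fold change of 0.76 over all 18. That fit called 1304 of 7724 genes higher, against 930 of 7539 with every library. In either direction it called 2614 genes, against 1900. Among the MEK F53S libraries, replicate 2 was the highest in TPM for 12 of 18 19S genes and the lowest for 10 of 14 20S genes. It was the highest of its group for 51.0% of all tested genes, and the share where it was lowest was not counted. Its chi-square per degree of freedom was 141.5 against replicate 1 and 124.7 against replicate 3, while those libraries gave 30.63 against each other.

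The number of calls depended on which library was left out, while the direction of the 19S genes did not. Without MEK F53S replicate 1, without MEK F53S replicate 3, without wild-type MEK replicate 2 and without wild-type MEK replicate 3, the 19S genes called were 10, 11, 10 and 11. Over all genes, those same fits called 512 of 7792, 495 of 7638, 424 of 7856 and 474 of 7857 higher. With every library 930 of 7539 were called higher, so the background count shrank too. Calls in either direction were 1075, 1001, 1016 and 1116, against 1900 with every library. Of the 17 19S genes called, all 17 kept a positive log2 fold change under every alternative tried, and 6 were called under every one, namely Rpn10, Rpn3, Rpn5, Rpt1, Rpt2 and Rpt5. Rpn1, Rpn7, Rpn9 and Rpn12 were each called in 1 of the 6 fits that left out a library.

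The 19S genes had longer transcripts than the 20S genes at the median, with overlapping ranges. The longest annotated transcript had a median of 1534 bases over 19S genes (995 to 3412) and 971 bases over 20S genes (815 to 1215). When the fit removed the trend of log2 fold change with gene length, 13 19S genes and 1 20S gene were called higher. The same fit called 982 of all 7539 genes higher. When limma was run on log2(TPM + 1), 12 19S genes and 3 20S genes were called higher, with 13.9% of all tested genes called higher. With the deposited effective length as an offset, 9 19S genes and no 20S genes were called higher, with medians of 0.55 and 0.17 on the log2 scale. That offset gave 723 of all 7539 genes called higher. An offset from the length implied by reads over TPM, added after seeing the data, gave 10 and 1, with 808 of all 7539 genes.

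The 7 alpha subunits form the outer rings of the 20S core, and 2 of them rose. Prosalpha3 averaged 70.9 ± 8.41 CPM in MEK F53S eggs and 48.9 ± 5.80 CPM in wild-type MEK eggs (SD, n = 3 each), with a log2 fold change of 0.54 (edgeR adjusted p = 0.0281). Prosalpha7 averaged 956 ± 150 TPM in MEK F53S eggs and 704 ± 50.4 TPM in wild-type MEK eggs (SD, n = 3 each), with a log2 fold change of 0.49 (edgeR adjusted p = 0.0471). Prosalpha2, at 0.43, and Prosalpha6, at 0.27, did not pass the test (edgeR adjusted p = 0.0546 and 0.143), although their groups did not overlap, and Prosalpha4 was at 0.04.

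Prosalpha5 had the lowest log2 fold change of the canonical genes, −0.49 ± 0.19 (SE, edgeR adjusted p = 0.0884). It had 1581, 1612 and 1812 TPM in MEK F53S eggs, against 1497, 2793 and 2512 TPM in wild-type MEK eggs. Wild-type MEK replicate 1 was the lowest of all 6 libraries and the other wild-type MEK libraries were the highest, so the groups overlapped. Without wild-type MEK replicate 1 its log2 fold change was −0.73 and it was called lower (edgeR adjusted p = 0.00173). DESeq2 called it lower with all libraries (adjusted p = 0.0437), as did edgeR with no filter on low counts (adjusted p = 0.0490), and over all alternatives its adjusted p lay between 0.00173 and 0.273.

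Of the 7 beta subunits, 3 carry the cutting sites: Prosbeta1 cuts after acidic, Prosbeta2 after basic and Prosbeta5 after hydrophobic residues. Prosbeta5 rose, with an average of 209 ± 20.0 TPM in MEK F53S eggs and 143 ± 2.71 TPM in wild-type MEK eggs (SD, n = 3 each) and a log2 fold change of 0.53 (edgeR adjusted p = 0.0158). Prosbeta2 was at 0.43 (edgeR adjusted p = 0.0849) and Prosbeta1 at 0.22 (edgeR adjusted p = 0.448). The structural subunits Prosbeta7, Prosbeta3, Prosbeta4 and Prosbeta6 had log2 fold changes of 0.26, 0.24, 0.14 and 0.10 and none was called.

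The 20S calls depended on single libraries. Without MEK F53S replicate 1, MEK F53S replicate 3, wild-type MEK replicate 2 or wild-type MEK replicate 3 in turn, no 20S gene was called higher. Without wild-type MEK replicate 1 the count was 1, and without MEK F53S replicate 2 it was 5. Over all genes, the fits with no 20S call gave 512, 495, 424 and 474 genes called higher, in the order named. The fit without wild-type MEK replicate 1 called 1304 of 7724 genes higher. The fit without MEK F53S replicate 2 called 836 of 7681 higher. None of the 3 was called under every alternative, although the log2 fold change of each was positive in all of them.

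In levels per transcript length, the 20S genes spanned a wider range than the 19S genes. Prosalpha5 was the most abundant 20S transcript in both groups, at 1668 ± 125 TPM in MEK F53S eggs and 2268 ± 682 TPM in wild-type MEK eggs (SD, n = 3 each), followed by Prosalpha7 and Prosbeta6, whose means lay within 1 SD of each other in MEK F53S eggs. Prosbeta1 was the least abundant, at 142 ± 21.0 TPM in MEK F53S eggs and 127 ± 13.3 TPM in wild-type MEK eggs. Among 19S genes the lowest mean in MEK F53S eggs was that of Rpt5, at 118 ± 9.88 TPM. In wild-type MEK eggs Rpn10 and Rpt5 were lowest, at 65.9 ± 28.3 and 66.7 ± 12.3 TPM, a difference within their spread. The place of Rpt5 held on the length-scaled level only. By CPM Rpn11 was lowest in both groups, at 56.5 in MEK F53S and 27.3 in wild-type MEK eggs, against 95.4 and 58.3 for Rpt5. The deposited effective length was 1286 to 1532 bases for Rpt5 and 494 to 671 bases for Rpt1. Their longest annotated transcripts have 1627 and 1515 bases.

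The median TPM over the 18 19S genes was 244, 312 and 264 in MEK F53S libraries, against 191, 171 and 163 in wild-type MEK libraries. The median over the 14 20S genes was 602, 460 and 532 in MEK F53S libraries, against 403, 402 and 394 in wild-type MEK libraries. Neither set of medians overlapped between the groups, and within MEK F53S replicate 2 was the highest for the 19S and the lowest for the 20S genes. For the 20S core this held for the pooled median only. The alpha medians overlapped, at 717, 506 and 577 against 598, 646 and 657, and so did the beta medians, at 362, 359 and 409 against 285, 387 and 351. The summed 20S TPM overlapped too, at 7690 to 8916 in MEK F53S libraries and 7238 to 8817 in wild-type MEK libraries.

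**Figure D3:**
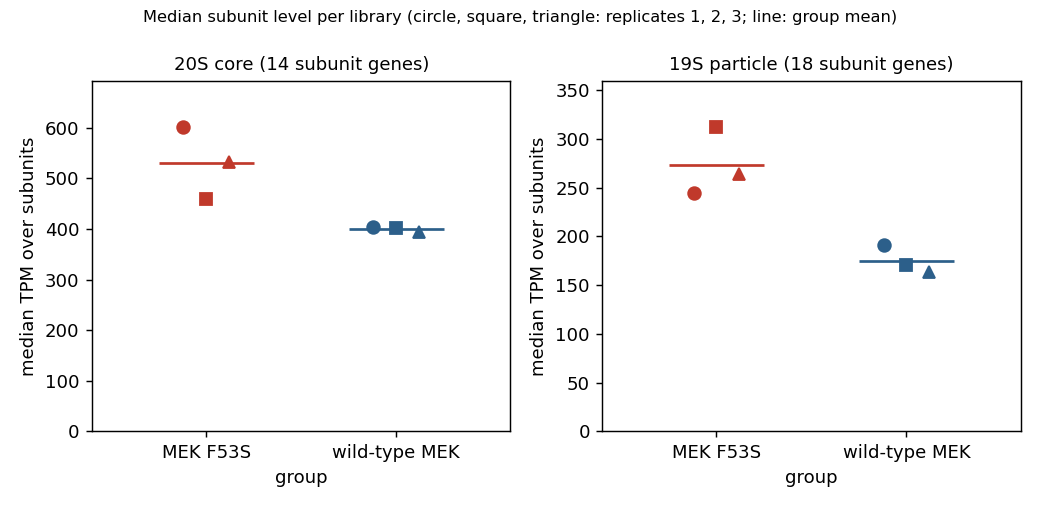
Median TPM over the 14 20S genes (left) and the 18 19S genes (right) in each library, with a point per replicate and a line at the group mean, MEK F53S to the left of wild-type MEK. The 19S medians lie between 244 and 312 in MEK F53S eggs and between 163 and 191 in wild-type MEK eggs.

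The balance of core and regulatory particle, taken as summed 20S TPM over summed 19S TPM, was 1.84, 1.37 and 1.81 in MEK F53S libraries, against 1.87, 2.96 and 3.03 in wild-type MEK libraries. Wild-type MEK replicate 1 sat just above the MEK F53S libraries, and the other wild-type MEK libraries were well above them. Prosalpha5 alone made up 17.7, 21.0 and 20.4% of the 20S TPM in MEK F53S libraries, against 20.7, 31.7 and 29.9% in wild-type MEK libraries. Without Prosalpha5 the ratio was 1.51, 1.08 and 1.44 in MEK F53S libraries, against 1.49, 2.02 and 2.13 in wild-type MEK libraries, so the groups then overlapped. All 32 canonical subunits together took 0.570, 0.499 and 0.570% of reads in MEK F53S libraries, against 0.380, 0.366 and 0.363% in wild-type MEK libraries. These read shares were not normalised. In TPM the groups were closer, with shares of 1.38, 1.33 and 1.38% in MEK F53S libraries, against 1.11, 1.18 and 1.12% in wild-type MEK libraries.

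The canonical genes lie on 5 chromosome arms, and genes that rose were found on each. They numbered 6 of 10 on 2R, 6 of 9 on 3R, 3 of 5 on 3L, 3 of 4 on X and 2 of 4 on 2L. The share of all tested genes called higher on each arm was not counted. The arms differ in their mix of 19S and 20S genes, and a part of location was not tested.

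The paralogs were nearly silent with a single exception. Of the 16, 12 had no reads in any library: Prosalpha3T, Prosalpha4T1, Prosalpha4T2, Prosalpha6T, Prosbeta2R1, Prosbeta4R1, Prosbeta4R2, Prosbeta5R1, Prosbeta5R2, Rpn12R, Rpn13R and Rpt4R. A count of 0 allows up to 3 counts per library, which is 0.0567 to 0.0881 CPM here and covers counting error only. Prosbeta2R2 had 12 reads in wild-type MEK replicate 3 and none elsewhere, and Rpt6R had 3, 0 and 0 reads in MEK F53S eggs, against 20, 6 and 30 reads in wild-type MEK eggs. These 14 genes did not pass the count filter and were not tested. Of 25 matched testis markers 17 were at 0 in every library, and the rest summed to 6.72, 9.32 and 9.92 CPM in MEK F53S eggs, against 1.13, 2.30 and 3.58 CPM in wild-type MEK eggs, most of it from mia.

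Rpt3R, the paralog of the ATPase Rpt3, had 61, 24 and 76 reads in MEK F53S eggs, against 75, 85 and 84 reads in wild-type MEK eggs. Its normalised level averaged 1.14 ± 0.564 CPM in MEK F53S eggs and 2.16 ± 0.456 CPM in wild-type MEK eggs (SD, n = 3 each), with all MEK F53S libraries below all wild-type MEK libraries. The log2 fold change of −0.92 ± 0.56 (SE) did not pass the test (edgeR adjusted p = 0.263). Rpt3 itself, described above, averaged 156 ± 3.49 CPM in MEK F53S eggs and 99.5 ± 15.4 CPM in wild-type MEK eggs.

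The exception was Prosalpha1R, a paralog of the alpha-ring gene Prosalpha1. It had 487, 2330 and 3186 estimated reads in MEK F53S eggs, against 6.13, 0 and 0 in wild-type MEK eggs after rounding. All MEK F53S libraries were far above all wild-type MEK libraries, and MEK F53S replicate 1 was well below replicates 2 and 3. In TPM it had 44.7, 196 and 217 in MEK F53S eggs, against 0.509, 0 and 0 in wild-type MEK eggs. The normalised level was 40.1 ± 25.1 CPM in MEK F53S eggs and 0.0438 ± 0.0758 CPM in wild-type MEK eggs (SD, n = 3 each). Prosalpha1R passed the count filter through the MEK F53S libraries alone, so its test is no separate support for the difference. Its edgeR adjusted p was 0.000148, and it was called higher in each of the 6 fits that left out 1 library. With the wild-type MEK libraries at 0 set to the floor of 3 counts each, the ratio of mean CPM was 397, and the fitted log2 fold change of 9.53 ± 0.89 (SE) depends on the prior count.

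Prosalpha1 and Prosalpha1R lie side by side on chromosome arm 2R of dm6, both on the minus strand. Prosalpha1 occupies 7827303 to 7828678 and Prosalpha1R 7830413 to 7831771, with a gap of 1734 bases that holds most of CG18853. Each gene has 4 exons, of which exons 2, 3 and 4 are of equal length in both, 100, 177 and 580 bases, or 857 bases in all. Their exon sequences were not compared here, and Salmon divides reads that fit several transcripts between them, so the split of reads between these copies is uncertain. Each also overlaps a gene on the opposite strand by 17 bases at its 3′ end.

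Prosalpha1 had 8480, 6759 and 8171 estimated reads in MEK F53S eggs, against 7922, 7323 and 6801 in wild-type MEK eggs. Its normalised level averaged 168 ± 36.5 CPM in MEK F53S eggs and 193 ± 21.0 CPM in wild-type MEK eggs (SD, n = 3 each), and its log2 fold change of −0.20 ± 0.16 (SE) was not called (edgeR adjusted p = 0.399). Prosalpha1R took 5.44, 25.6 and 28.1% of the reads of the pair in MEK F53S eggs, against 0.0773, 0 and 0% in wild-type MEK eggs after rounding. MEK F53S replicate 1, where Prosalpha1R was lowest, was also where Prosalpha1 was highest in normalised CPM, at 209 against 139 and 155 in replicates 2 and 3.

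When the reads of both genes were summed, the groups overlapped. The sum was 221, 187 and 215 CPM in MEK F53S eggs, against 174, 215 and 190 CPM in wild-type MEK eggs, with a log2 fold change of 0.11 ± 0.13 (SE, edgeR adjusted p = 0.573). A difference was called for the reads assigned to Prosalpha1R and was not called for the total of the pair.

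**Figure D4:**
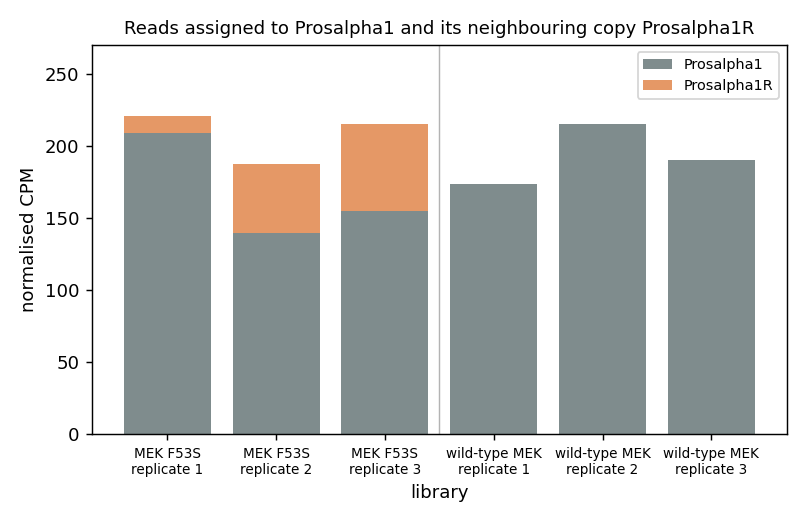
Normalised CPM assigned to Prosalpha1 (grey) and Prosalpha1R (orange), stacked for each library, with the 3 MEK F53S libraries left of the 3 wild-type MEK libraries. Prosalpha1R is visible in every MEK F53S bar and in no wild-type MEK bar, and the bar heights of 187 to 221 and 174 to 215 CPM overlap.

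Genes beside the pair were chosen for description after their values were seen. phr, a photolyase gene whose 3′ end overlaps that of Prosalpha1, had 1704, 2061 and 2079 reads in MEK F53S eggs, against 1333, 610 and 560 reads in wild-type MEK eggs, and rose by a log2 fold change of 0.98 ± 0.23 (SE, edgeR adjusted p = 0.0129). CG18853, which lies between the copies and overlaps Prosalpha1R, had 0, 0 and 80.8 reads in MEK F53S eggs, against 0, 43.4 and 0 reads in wild-type MEK eggs, and was not tested. Of the other flanking genes, CG12822, cathD, Atg10 and CG30383 had log2 fold changes of 0.31, −0.04, −0.46 and −1.13, and none was called (edgeR adjusted p = 0.173, 0.870, 0.617 and 0.536).

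Genes that act with the proteasome were counted from lists. Beside these counts stand the 12.3% of all tested genes that were called higher and the 12.9% called lower. Of 5 assembly factors 4 rose, with a median log2 fold change of 0.99. CG9588, which RefSeq gives the synonym p27, rose by 1.56, and CG12096, with the synonyms S5b and PSMD5, rose by 0.68 (edgeR adjusted p = 0.00548 and 0.0342); in human cells proteins of these names are chaperones of the 19S base. PSMG1, in human cells a chaperone of the alpha ring, rose by 1.10 and CG12321 by 0.99 (edgeR adjusted p = 0.0272 and 0.00973). Pomp, which helps the core rings mature, was at −0.03 (edgeR adjusted p = 0.919), with 168, 116 and 136 TPM in MEK F53S eggs, against 104, 116 and 122 TPM in wild-type MEK eggs. CG9588 and CG12321 were called in all 6 fits that left out a library. CG12096 and PSMG1 were called in 1 of the 6, the fit without wild-type MEK replicate 1, and their highest adjusted p by edgeR was 0.117 and 0.0963.

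Of 9 matched regulators and proteasome-bound deubiquitinases 8 were tested, of which 3 fell and none rose, with a median log2 fold change of −0.15. REG, the PA28 gamma-type activator that binds the core in place of the 19S particle, had 280, 288 and 287 TPM in MEK F53S eggs, against 358, 326 and 348 TPM in wild-type MEK eggs. Its groups did not overlap, and its log2 fold change was −0.48 ± 0.10 (SE, edgeR adjusted p = 0.00683). PI31, a proteasome-binding protein, fell by 0.54 on the log2 scale and its F-box partner ntc fell by 0.41 (edgeR adjusted p = 0.0192 and 0.0268). REG was called in all 6 fits that left out a library, while PI31 and ntc each lost the call without MEK F53S replicate 1, MEK F53S replicate 3, wild-type MEK replicate 2 or wild-type MEK replicate 3, with highest adjusted p by edgeR of 0.0885 and 0.124. The deubiquitinases Usp14, at 0.23, and Uch-L5, at −0.15, were not called (edgeR adjusted p = 0.206 and 0.319). At an unadjusted p under 0.05, 1 gene of this list was higher, DESeq2 called none higher, and limma on log2(TPM + 1) called 1 higher and, of the 3 that fell, PI31 alone. The log2 fold change of ntc was −0.22 by limma on log2(TPM + 1), and the log2 fold change of REG was −0.27 (adjusted p = 0.207 and 0.0563). The list also counts CG13690, at 0.20, whose place among regulators is uncertain, and Sem1, at 0.65, which is a small subunit of the lid that the naming rule did not take, and neither was called (edgeR adjusted p = 0.316 and 0.0768).

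None of the 7 genes of the cnc axis was called by edgeR's quasi-likelihood test, by DESeq2 or by limma on log2(TPM + 1), where the counts at an unadjusted p under 0.05 were 2, 1 and 3, all of them higher. cnc, the fly relative of the NRF factors that are known to drive proteasome genes, had 91.5, 153 and 102 TPM in MEK F53S eggs, against 96.0, 94.9 and 82.7 TPM in wild-type MEK eggs. MEK F53S replicate 2 was the highest of all libraries, and the log2 fold change was 0.10 ± 0.16 (SE, edgeR adjusted p = 0.705). The median over the list was 0.10.

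Of 5 ubiquitin and ubiquitin-activating genes 2 rose, with a median log2 fold change of 0.24. Ubi-p5E, a polyubiquitin gene, had 1074, 1405 and 1082 TPM in MEK F53S eggs, against 642, 652 and 601 TPM in wild-type MEK eggs, and rose by 0.85 ± 0.11 (SE, edgeR adjusted p = 0.000855). Its groups did not overlap, but polyubiquitin genes share coding repeats, so the split of reads between Ubi-p5E and Ubi-p63E, at −0.23 (edgeR adjusted p = 0.149), is uncertain. Uba1, the ubiquitin-activating enzyme, rose by 0.85 (edgeR adjusted p = 0.0210), but was called in 2 of the 6 fits that left out a library, those without MEK F53S replicate 1 and without wild-type MEK replicate 1, with a highest adjusted p by edgeR of 0.0786.

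Of 5 genes for substrate delivery 3 rose and 1 fell, with a median log2 fold change of 0.82. Ufd1, Npl4 and p47, cofactors of the segregase p97 that pulls ubiquitinated proteins out of complexes, rose by 1.13, 0.82 and 0.97 (edgeR adjusted p = 0.00339, 0.0123 and 0.00265). TER94, the gene of p97 itself, was listed but not matched to a single row, so it is not among the 5. Rad23, a shuttle that carries ubiquitinated proteins to the proteasome, fell by 0.37 on the log2 scale (edgeR adjusted p = 0.0255), but its TPM of 1155, 1308 and 1128 in MEK F53S eggs overlapped the 1581, 1244 and 1219 in wild-type MEK eggs, and limma on log2(TPM + 1) did not call it lower. With 1 library left out, Ufd1 and p47 were called in all 6 fits and Npl4 in 5, the call being lost without wild-type MEK replicate 2 (edgeR adjusted p = 0.0587). Rad23 was called in 3, with the call lost without MEK F53S replicate 1, MEK F53S replicate 3 or wild-type MEK replicate 2 (highest edgeR adjusted p = 0.120).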

How the data were processed

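RNA-seq of unfertilized eggs was used from 3 MEK F53S and 3 wild-type MEK libraries. Reads were quantified by the authors with Salmon 0.8.2, and the build named is dm6, per the submitters' processing notes. The annotation, strand setting and bias options were not given in any source used here. The deposited tables give, per the file headers, estimated counts, not normalised for depth, and TPM values scaled for transcript length and library. The deposited gene length lay over 10% below the shortest annotated transcript for 67.2% of genes with several transcripts, and for 0.278% of genes with 1. The other deposited column, effective length in bases, was therefore used as an offset in an alternative only.

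Of 13943 features 13831 matched a symbol. Estimated counts were rounded and filtered with filterByExpr (minimum count 10, total 15), which left 7539 genes. They were scaled by TMM and tested with edgeR 4.0.16's quasi-likelihood test in R 4.3.3, with Benjamini-Hochberg adjustment. CPM are normalised by TMM factors, apart from marker sums, which are scaled to all reads of a library. DESeq2 1.42.0 and limma 3.58.1 were alternatives. Fits were checked on simulated data. Of 48 members 34 passed the filter, 32 of them canonical. Positions come from an Ensembl annotation of the dm6 assembly. Floors cover counting error only, while SDs and SEs include the spread between the libraries of a group.

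Values in every library are given for paralogs past the filter with their canonical gene, the 5 members with the smallest p in each direction (3 were negative), and the highest and lowest canonical log2 fold change. Other lists name every called gene plus REG, Pomp, cnc, Usp14 and Uch-L5. Values of further members were added to account for each. Members and lists were chosen with earlier results of these data known. The labels name biological replicates without saying what separated them.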

Additional observations from a re-analysis of the deposited data

How the results depend on the processing

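Over 18 alternatives 1 paralog, Prosalpha1R, was called higher in each (its reads summed with those of Prosalpha1 gave no call), 0 19S genes were called lower, and the medians of the 19S and 20S genes stayed positive. The 20S genes called higher numbered 0 with the effective length column as an offset, 1 with the gene length trend removed and 1 with the implied length as an offset, an alternative added after seeing the data. The 19S genes called higher numbered 9 and 10 with those 2 offsets. Leaving out 1 library gave 0 to 5 20S genes called higher, 0 to 1 called lower and 10 to 15 19S genes called higher. Over all genes those fits gave 1001 to 2614 calls in either direction, with 424 to 1304 genes called higher. 1 20S gene, Prosalpha5, was called lower with no filter on low counts and with DESeq2. For Prosalpha1 and Prosalpha1R reads summed, the log2 fold changes were −0.31 and −0.02 with the effective and implied length offsets, and none of the alternatives called a difference. limma on log2(TPM + 1) moved the median of all genes to 0.12 and called 1049 higher and 572 lower, against 930 and 970 by edgeR; the gene length trend removed gave 982 and 639. Same-numbered replicates did not deviate together (correlations −0.14, −0.14 and 0.19), so the numbers were not taken as pairs. Across numbers the correlations ran from −0.25 to 0.28. The highest was between MEK F53S replicate 2 and wild-type MEK replicate 1, and the lowest between MEK F53S replicate 2 and wild-type MEK replicate 3. A fit with a replicate block called 1486 genes in either direction and 744 higher, with 13 19S genes and 2 20S genes called higher. The cause of these changes was not tested. At 3 libraries a group, differences near the SE of single genes cannot be resolved, and genes at a few reads are limited by depth.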
